A study of Homo sapiens with 30 samples.

Results

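Bone morphogenetic protein 7 (BMP7) is a secreted ligand of the TGF-beta superfamily. It binds type I and type II receptor serine kinases, which phosphorylate SMAD1, SMAD5 and SMAD9, and these enter the nucleus with SMAD4 and act on target genes. Among the best known direct targets are the ID genes, whose products bind basic helix-loop-helix (bHLH) transcription factors and keep them off DNA. In breast cancer cells BMP ligands are known for effects on growth, migration and differentiation.

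The probes described here were bright in both dyes on nearly every array and had a ratio of BMP7 to vehicle that varied widely from array to array. A probe was taken when both of its channels were well above background on at least 28 of 30 arrays and the SD of its log2 ratio over the 30 arrays was at least 0.6. Of 41000 probes measured, 20310 were bright in this sense and 372 of these had an SD of at least 0.6, which is 1.83% of the bright probes. The probes were selected on their measured brightness and ratios on these arrays, so their ratios and correlations are given as a description, with no test. The SD of the 372 probes lay between 0.60 and 1.06 with a median of 0.71, and the median of all bright probes was 0.23.

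The study treated 5 human breast cancer cell lines with recombinant BMP7 or with vehicle, and harvested them at 6 time points, the earliest at 30 min and the others at 1, 3, 6, 12 and 24 h. HCC1954, MDA-MB-231, MDA-MB-361, T-47D and ZR-75-30 are established lines, and no allele or construct was introduced. On each of the 30 arrays, vehicle cells labeled with Cy3 were hybridized against BMP7 cells of the same line and time labeled with Cy5. Each sample was a pool of 3 cultures. No array was repeated and no dyes were swapped, so values have no replicate and any steady dye bias of a probe sits in its ratio.

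Both channels were well above background for 53.8% to 68.3% of the probes of an array. The arrays were scanned in 2 periods, and the second held the 30 min arrays of ZR-75-30, HCC1954 and MDA-MB-231, the 6 h arrays of MDA-MB-231 and ZR-75-30, and the 3 h array of T-47D. Spots marked as outliers numbered 2741 on the 6 h array of MDA-MB-231 and had a median of 174 over all arrays. The epithelial markers KRT8, KRT18, KRT19, TACSTD1 and CDH1 were well above background in vehicle cells on all 30 arrays, and PTPRC, a leukocyte marker, on 0. Of the endothelial markers, PECAM1 was above background on 6 arrays of HCC1954 and 3 of MDA-MB-231 and CDH5 on 5 of HCC1954. Of the fibroblast collagens, COL1A1 was above background on 6 arrays each of HCC1954, MDA-MB-361 and T-47D, 4 of ZR-75-30 and 1 of MDA-MB-231, and COL3A1 on 2 of ZR-75-30. ESR1, the estrogen receptor, was above background on 0 of 6 arrays of MDA-MB-231 and on 6 of 6 of each other line. The receptors BMPR1A, BMPR2 and ACVR1 and the mediators SMAD1, SMAD4 and SMAD5 were above background on 6 of 6 arrays of every line. The type I receptor BMPR1B was so only in HCC1954 and ZR-75-30, on 6 of 6 arrays each, and on 0 in the other lines, and ACVR2A on 5 of 6 arrays of MDA-MB-231, 4 of 6 of T-47D and 6 of 6 elsewhere.

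By the gene names of the array matched to RefSeq, 191 of the 372 probes carried a gene symbol (51.3%), against 78.6% of the bright probes. They covered 190 symbols, since GRIN1 had 2 probes, and the other 181 carried an accession of a transcript, a name that RefSeq did not match or only the probe's own name. None was saturated on any array, and 335 had a value on all 30 arrays. Among probes with a symbol, just inside the threshold lay LRP3 with an SD of 0.603, ALDOA with 0.607 and ADO with 0.607. Just outside lay DST with 0.59976, MAP4K3 with 0.599 and RAPGEF6 with 0.599.

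Most of these probes followed 1 pattern. The mean pairwise Pearson correlation of their log2 ratios over the 30 arrays was 0.595, the median was 0.882 and the lowest was -0.91. In an average linkage tree divided where the correlation between branches fell under 0.5, 313 of the 372 probes formed a single large group with a mean correlation of 0.877 among themselves. The other 59 fell into 15 further groups, 5 of which were single probes. The arrays share cell lines, slides and scan periods, so these correlations are not over independent samples.

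An event is a ratio of at least 2-fold in either direction on 1 array. The 372 probes had 656 upregulation and 846 downregulation events, which is 5.93% and 7.64% of their values against 0.36% and 0.429% for all bright probes. Of their events 43.7% were upward, and 333 of them had events in both directions. Of their values in T-47D, 25.1% were downregulation events, against 0.809% of the values of all bright probes. In ZR-75-30, 23.5% were upregulation events, against 0.996%, and in HCC1954 7.68% were downregulation events, against 0.179%. The other combinations were rarer. Upregulation events made up 2.07% of the values in MDA-MB-361 (0.1% of bright probes), 1.76% in T-47D (0.475%), 1.5% in MDA-MB-231 (0.156%) and 0.678% in HCC1954 (0.0699%). Downregulation events made up 3.69% in ZR-75-30 (0.825% of bright probes), 1.28% in MDA-MB-231 (0.298%) and 0.451% in MDA-MB-361 (0.0312%). The rule picked variable probes, so a higher share than among all bright probes was built in.

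The events stood on few arrays. The 6 h array of ZR-75-30 held 311 upregulation events, and the 1 h and 30 min arrays of T-47D held 294 and 216 downregulation events. The 12 h and 3 h arrays of ZR-75-30 followed with 114 and 79 upregulation events, and the 30 min array of HCC1954 with 97 downregulation events. Over all bright probes, members included, ZR-75-30 at 6 h had 894 upregulation and 775 downregulation events. T-47D at 1 h and 30 min had 416 and 224 downregulation events among them. Arrays with large ratios also shaped the choice of members, so this concentration was partly built in. The array farthest from a probe's mean was ZR-75-30 at 6 h for 253 of the 372 probes and T-47D at 1 h for 56. Without its own farthest array, 174 of the 372 probes had an SD under 0.6, and for 125 of these that array was ZR-75-30 at 6 h.

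The large group had a direction that depended on the cell line. In MDA-MB-361 the array medians of its 313 probes were all above 0, from 0.33 to 0.61 with a median of 0.44. In HCC1954 they were all below 0, from -0.93 to -0.23 with a median of -0.52, although 2 of the 6 were above 0 with normexp background correction and median scaling (0.59 at 30 min and 0.02 at 6 h). The ranges of these lines did not overlap with the values used here, and did so with that correction and scaling, where MDA-MB-361 was at 0.57 at 1 h and 0.56 at 6 h. Fewer cells with a transcript and less of it per cell cannot be told apart in pooled cultures. In single probes, 290 of the 313 were above 0 on every measured array of MDA-MB-361, and 260 were below 0 on every measured array of HCC1954. The group was formed on these same ratios, so agreement in sign between its probes was largely built in. Such counts over all bright probes are not given here.

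In the other lines the sign of the large group turned with time. The T-47D medians were -1.11 at 30 min and -1.64 at 1 h, then -0.06, -0.64 and -0.43 at 3, 6 and 12 h, and 0.07 at 24 h. The ZR-75-30 medians were -0.78 at 30 min and -0.07 at 1 h, then 0.70, 1.83, 0.87 and 0.31 at 3, 6, 12 and 24 h. Both lines had their lowest value within the first hour. The MDA-MB-231 medians were the closest to 0, from -0.39 at 30 min to 0.45 at 3 h with a median of -0.05. With normexp and median scaling, the signs at 3 h and 24 h of T-47D, at 1 h of ZR-75-30 and at 1, 6, 12 and 24 h of MDA-MB-231 turned, and the mean of MDA-MB-231 went from -0.03 to 0.53. That setting put the median of all bright probes between -0.46 and 1.00 on single arrays, whereas with the values used here it stayed within 0.04 of 0.

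The 2 scan periods bear on this pattern, since ZR-75-30 at 6 h, its highest array, was scanned in the second. So were the 30 min arrays of ZR-75-30, HCC1954 and MDA-MB-231, each the lowest of its line (-0.78, -0.93 and -0.39). Before 3 h, ZR-75-30 had only its 1 h array in the first period, at -0.07. Its low early value and the scan period therefore cannot be told apart. Over the arrays of the first period alone, the mean of the array medians was 0.45 in ZR-75-30 (4 arrays), 0.44 in MDA-MB-361 (6), 0.06 in MDA-MB-231 (4), -0.48 in HCC1954 (5) and -0.75 in T-47D (5). The mean of MDA-MB-231 was -0.03 over all 6 arrays, so its sign turned. The intercept of the spike-in controls, a value that the scanner software fits to RNAs added in known amounts, moved with the large group. Over 30 arrays its Pearson correlation with the group median was 0.712 (Spearman's rho 0.733, and r = 0.696 without the 2 arrays farthest from its median). Within lines it was 0.852 in MDA-MB-361, 0.806 in ZR-75-30, 0.295 in MDA-MB-231, 0.265 in T-47D and -0.14 in HCC1954, over 6 arrays each. The slope of the same fit was 0.25 on the 6 h array of MDA-MB-231 and 0.50 to 0.84 on the other arrays. Its correlation with the group median over 30 arrays was -0.14. The part of the spike-in intercept and slope in the large group was not tested.

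The most variable named probe was that of NEUROG3, a bHLH transcription factor of the endocrine pancreas (chr10:71001813-71001872 in hg18). In ZR-75-30 its log2 ratio was -1.62 and -0.76 at 30 min and 1 h, then 1.22, 2.10, 1.35 and 0.56. In T-47D it was -1.57 and -2.32, then 0.35, -0.17, -0.01 and 1.15. All 6 values were above 0 in MDA-MB-361, from 0.62 to 1.45, and all 6 below 0 in HCC1954, from -1.43 to -0.36, with no overlap. In MDA-MB-231 it ran from -0.57 to 0.53.

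CXCR3, a chemokine receptor of T cells, was next with an SD of 0.986. Its ratio at 6 h of ZR-75-30, 2.66, was its highest, and that at 1 h of T-47D, -2.13, its lowest. It lay between 0.65 and 1.29 in MDA-MB-361 and between -1.17 and -0.15 in HCC1954, again with no overlap. GDNF, the ligand of the RET receptor complex that sustains neurons, ranged from 0.37 to 1.07 in MDA-MB-361, from -0.92 to -0.07 in HCC1954 and from -1.06 to 2.30 in ZR-75-30. CKB, the brain form of creatine kinase, ranged from 0.40 to 0.86, from -1.06 to -0.36 and from -1.37 to 1.90 in the same lines. The line means of NEUROG3, CXCR3, GDNF and CKB kept their sign in MDA-MB-361 and HCC1954 under every background correction and scaling tried, and those of NEUROG3 and CKB in MDA-MB-231 turned with normexp and median scaling, from -0.11 to 0.23 and from -0.12 to 0.49.

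Some of the large group were sorted by function, in lists made by hand after the members were known, which are not complete and say nothing of how common such genes are among bright probes. Listed were 29 probes of transcription factors of neural and embryonic development. Beside NEUROG3 these were, for example, the SOX genes SOX1, SOX3, SOX8, SOX17 and SOX18, the forkhead genes FOXB1, FOXC1, FOXC2, FOXE1 and FOXQ1, and homeobox genes such as PHOX2A, LBX1, EN2 and EVX1. The median of their line means was 0.44 in MDA-MB-361, 0.43 in ZR-75-30, -0.03 in MDA-MB-231, -0.56 in HCC1954 and -0.60 in T-47D. The probe of DUX4, a factor of the early embryo with many near-identical copies in the genome, may read several of them.

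The other listed kinds of gene had line means close to these. All kinds were drawn from the large group, whose probes were grouped by their correlated ratios. Likeness between the kinds was therefore largely built in. The 10 probes of G protein-coupled receptors, among them CXCR3, DRD4 (a dopamine receptor), GALR3 (a galanin receptor) and KISS1R (the kisspeptin receptor), had medians of 0.50 in MDA-MB-361 and -0.61 in HCC1954. The 13 probes of ion channels and synapse proteins, with SYN1, HCN2, HCN4, CACNA1E and the NMDA receptor subunits GRIN1 and GRIN2D, had 0.39 and -0.58. The 8 of secreted ligands and hormones, with GDNF, WNT6, ARTN, BMP8A and AVP (vasopressin), had 0.43 and -0.44. The 4 listed of proteins of the epidermal envelope and hair, with LCE5A and KRTAP2-4, had 0.47 and -0.46, and the 8 of enzymes, with CKB, CYP4F2 and ALDOA, had 0.49 and -0.53. BBC3 and HRK, proteins that promote cell death, had 0.45 and -0.60. In ZR-75-30 the medians of these kinds lay between 0.43 and 0.85, and in T-47D between -0.67 and -0.35.

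For 54 genes of the large group the array held 79 further probes that were bright as well. GRIN1, with both probes in the list, is not counted here. Being bright and no member, the 79 had an SD under 0.6 by the rule, and it had a median of 0.245, against 0.719 for the members of the same genes. The correlation between member and further probe over the 30 arrays had a median of 0.129, with 34 of 79 below 0 and 2 above 0.8. Among bright probes outside the list, 6744 pairs of probes of 1 gene had a median of 0.342. Which transcripts each probe reads was not tested, since the probe sequences were not used here.

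Examples went both ways. The member probe of IER5, an immediate early gene, ranged from -1.35 to 1.62, and its other probe from -0.71 to 0.91 with a correlation of -0.34 between them. PRNP, the prion protein gene, had a correlation of -0.57, and IRX3, a homeobox gene, -0.38. CKB had 0.717 and a second probe that ran only from -0.68 to 0.68. KRTAP2-4, a keratin-associated protein with close relatives in a gene cluster, had the highest value, 0.929. ALDOA, an enzyme of glycolysis, had 0.139, with an SD of 0.607 in the member and 0.192 in the other probe. The GRIN1 probes, which overlap on chromosome 9, were both members and had SDs of 0.787 and 0.666.

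The large group was also bright in vehicle cells. Its mean log2 vehicle signal had a median over probes of 12.8, against 8.17 for the other members and 9.70 for bright probes outside the list. These are spot brightnesses, which depend on the probe as well as on the transcript. The vehicle signal varied more between the arrays of a line than for other bright probes. Its SD within a line had a median of 0.950 in the large group, 0.741 in the other members and 0.349 in bright probes outside the list. The members were chosen on the SD of a ratio with this signal as denominator, so a larger spread can follow from the selection. The arrays of a line also differ in time and, except in MDA-MB-361, in scan period.

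Relative to the 75th percentile of each array, the median vehicle level of the large group was 1.95 to 2.39 in MDA-MB-361. In ZR-75-30 it was 0.11 to 1.38 on the 4 arrays of the first scan period, and 3.83 and 2.72 at 30 min and 6 h, both of the second. The ranges of HCC1954 (2.75 to 4.86), MDA-MB-231 (2.93 to 5.0) and T-47D (2.99 to 5.55) overlapped one another and lay above all 6 of MDA-MB-361. By probe, the line mean was lowest in ZR-75-30 for 262 of 313 and highest in T-47D for 270. In the first scan period alone it was lowest in ZR-75-30 for 297 and highest in T-47D for 241. This order was not counted over bright probes outside the list, so it cannot be called a trait of the group. The probes of the group also moved together and are not separate evidence. The lines with a low vehicle level thus included those with ratios above 0, and over 30 arrays the group medians of ratio and vehicle level correlated at r = -0.46 (rho -0.53, and r = -0.41 without the 2 farthest arrays). The vehicle signal is the denominator of the ratio, so the 2 values are not independent.

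The vehicle level between lines is the only quantity that was tested. By limma's moderated F over the 5 lines with time as a term, 346 of the 372 probes differed at an adjusted p under 0.05, which is 93.0%. That was 92.0% of all bright probes and 75.9% of all probes, so the members' share was close to that of bright probes in general. A line's arrays differ in time and are no replicates, and all slides but 1 held a single line, so line and slide mostly cannot be told apart. The exception held MDA-MB-231 and ZR-75-30 at 30 min and 6 h, where the large group's vehicle medians, 3.32 and 5.0 against 3.83 and 2.72, overlapped. With slide as a random block, 328 of the 372 passed, beside 17708 of the 20310 bright probes.

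For NEUROG3 the mean vehicle level, on the log2 scale relative to the 75th percentile, was 2.01 ± 0.91 in HCC1954, 1.61 ± 0.69 in T-47D, 1.59 ± 0.97 in MDA-MB-231, -0.42 ± 2.07 in ZR-75-30 and -0.97 ± 0.42 in MDA-MB-361, with SDs over 6 time points (limma, adjusted p = 0.000232). The order of HCC1954, T-47D and MDA-MB-231 was within their spread. CKB was at 4.53 ± 0.78, 4.50 ± 0.53, 4.39 ± 0.55, 2.20 ± 1.81 and 2.86 ± 0.20 in the same order (limma, adjusted p = 0.000449).

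Of the BMP and SMAD targets, 25 probes were bright and only those of ID1 and ID2 were members. With a probe without a gene symbol, CN479126, they formed a group of 3 with correlations of 0.868 (ID1 and ID2), 0.788 (ID1 and CN479126) and 0.776 (ID2 and CN479126). The CN479126 probe (chr20:29657031-29657090 in hg18) lies 729 bases from the ID1 probe (chr20:29657819-29657878). Whether these probes read the same transcript was not tested, so they may not be separate members. The group had 37 upregulation and 0 downregulation events and a correlation of 0.416 with the large group.

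ID1 differed by line in how far it went. In MDA-MB-231 its log2 ratios were 0.09, 1.06, 1.91, 0.54, 2.10 and 2.62 from 30 min to 24 h. The 0.54 at 6 h is from the array with 2741 outlier spots and a spike-in slope of 0.25. Their part in this value was not tested. In HCC1954 the ratios of ID1 were 0.11, 0.08, 1.32, 1.09, 1.15 and 0.99, and in MDA-MB-361 -0.35, 0.57, 1.47, 1.89, 0.88 and 1.06. In T-47D and ZR-75-30 no ID1 value reached 2-fold, with ranges of 0.08 to 0.84 and 0.29 to 0.77. Its vehicle level was lowest in MDA-MB-231, 2.64 ± 0.83, against 4.60 ± 0.64 in HCC1954 and 5.33 to 5.6 in the other lines (SD over 6 time points; limma, adjusted p = 6.66e-10).

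The member probe of ID2 reached 2-fold in all 5 lines at 3 h. Its values there ran from 1.06 in T-47D to 2.07 in MDA-MB-231, with a median of 1.39. The other bright probe of ID2 correlated with the member at 0.879 but had 6 upregulation events, against 14. Its line mean was 0.09 in T-47D, against 0.59 for the member. It was also lower than the member in HCC1954, MDA-MB-231 and ZR-75-30, and was 0.75 against 0.74 in MDA-MB-361. At 30 min the member probe lay between -0.01 and 0.15, and at 1 h between 0.26 and 0.90. At 24 h it was 2.57 in MDA-MB-231, 1.47 in HCC1954, 1.24 in ZR-75-30, 0.83 in MDA-MB-361 and 0.73 in T-47D. Its vehicle level differed between lines as well, with MDA-MB-361 highest at 3.05 ± 0.29 and MDA-MB-231 lowest at -3.73 ± 0.74 (SD over 6 time points; limma, adjusted p = 5.07e-16). CN479126 was below 0 in 4 of 5 lines at 30 min, down to -0.65 in HCC1954, and above 0 in 5 of 5 from 3 h on, with a median of 1.13 at 3 h and 2.55 in MDA-MB-231 at 24 h.

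The probes most like ID1 over the 30 arrays were those of ID3 (r = 0.917), ID2 (0.868), a second probe of ID2 (0.814) and CN479126 (0.788). ID3 lay just outside the list with an SD of 0.591 and 6 upregulation events, and the second ID2 probe with 0.530 and 6. The line means of ID1 and ID2 kept their sign under every background correction and scaling tried. Other BMP targets varied less. SMAD7, the inhibitory SMAD, had an SD of 0.225, BAMBI, a pseudoreceptor, 0.246, and GATA3, a luminal transcription factor, 0.281. The homeobox target MSX1, with 0.560, correlated at 0.883 with the large group and at 0.209 with ID1.

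The 200 bases before the start site are shown for ID1 and ID2, which moved together, and for SOX1 of the large group and ITGAV of the group that ran against it, in lower case with the motif GGCGCC in capitals. They are from RefSeq (GRCh38.p14) and all on the plus strand, at chr20:31605089-31605288 for ID1, chr2:8681856-8682055 for ID2, chr13:112066949-112067148 for SOX1 and chr2:186589856-186590055 for ITGAV.
ID1: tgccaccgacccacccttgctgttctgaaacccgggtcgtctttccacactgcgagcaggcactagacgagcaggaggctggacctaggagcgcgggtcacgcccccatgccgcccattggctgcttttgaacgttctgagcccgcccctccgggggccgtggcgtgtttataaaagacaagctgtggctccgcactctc
ID2: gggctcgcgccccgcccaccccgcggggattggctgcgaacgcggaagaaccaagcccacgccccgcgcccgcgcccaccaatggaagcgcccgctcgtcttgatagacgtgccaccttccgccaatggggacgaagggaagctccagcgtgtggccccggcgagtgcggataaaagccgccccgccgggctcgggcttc
SOX1: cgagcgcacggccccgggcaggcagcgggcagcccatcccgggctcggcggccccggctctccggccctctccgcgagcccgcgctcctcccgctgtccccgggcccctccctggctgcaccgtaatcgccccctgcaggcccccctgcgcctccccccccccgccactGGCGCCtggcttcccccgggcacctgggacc
ITGAV: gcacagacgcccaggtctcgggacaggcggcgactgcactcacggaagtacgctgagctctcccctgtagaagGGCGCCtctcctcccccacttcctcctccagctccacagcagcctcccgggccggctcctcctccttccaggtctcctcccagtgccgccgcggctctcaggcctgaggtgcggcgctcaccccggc

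The RefSeq table held a promoter of 300 bases for 148 of the 190 symbols. Over both strands, GGCGCC, the core to which the SMADs of BMP signaling can bind, occurred in 35.3% of 119 promoters of the large group, 31.4% of those of all genes with bright probes and 19.0% of all 27305. TGACTCA, the AP-1 motif, occurred in 5.88%, 2.76% and 4.92%, TGACGTCA (CREB) in 1.68%, 3.38% and 1.98%, and CACGTG (E box) in 10.9%, 10.4% and 7.43%. The median GC content was 69.7% in the large group, 65.3% in genes with bright probes and 58.3% in all. No motif was found in the 200 bases printed for ID1 and ID2.

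A group of 10 probes, all with gene symbols, ran against the large group, with a correlation of -0.69 between the group medians. It held EXOC5 (exocyst), ITGAV (integrin alpha V), SERBP1 (mRNA binding), KBTBD6, GEN1 (a nuclease of recombination), UBA6 (ubiquitin activation), CHD9 (chromatin), ASAP1, VPS50 (vesicle transport) and ADO. Its median was -1.88 in ZR-75-30 at 6 h and -1.18 in MDA-MB-231 at 24 h, and 1.1 and 0.98 in T-47D at 1 h and 3 h. Where this group was at -1.88 and 1.1, the large group was opposite, at 1.83 and -1.64. Where this group was at -1.18 and 0.98, the large group was at only -0.06 on each array. Without their farthest array, 8 of the 10 probes had an SD under 0.6. The member probe of SERBP1 reached 3.11 in T-47D at 24 h, and no other bright probe of SERBP1 exceeded 1.17 on any array. For ITGAV the T-47D values were 0.32, 1.03, 0.85, -0.23, -0.45 and 1.07, and those of ZR-75-30 were 0.24, 0.12, -0.41, -1.81, -0.63 and -0.30. For EXOC5 the range was -0.79 to 1.52 in T-47D and -1.91 to 0.14 in ZR-75-30, so the lines overlapped.

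The vehicle level of this group was low, with array medians from -5.58 to -1.10 over all lines. ITGAV was at -4.0 ± 1.17 in T-47D and between -2.85 and -2.05 in the other lines (SD over 6 time points; limma, adjusted p = 0.00102). For the 9 promoters of this group in the table, GGCGCC occurred in 6, against 31.4% of promoters of genes with bright probes, and 9 promoters are too few to compare. The 3 other bright probes of EXOC5 had SDs of 0.327 to 0.372 and correlations of 0.381 to 0.697 with the member, and that of ITGAV 0.223 and 0.754. The correlations were 0.240 to 0.554 for SERBP1, 0.664 and 0.818 for ASAP1, 0.447 for VPS50, 0.044 for UBA6 and -0.31 for CHD9. Over all groups but the large one, 29 such pairs of 18 genes had a median correlation of 0.554, with 2 of 29 below 0.

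Another 6 probes, C6orf62, CCDC126 and 4 without a symbol, also ran against the large group (r = -0.77 between medians). Their median was below 0 on 6 of 6 arrays of MDA-MB-361, from -1.04 to -0.38, and above 0 on 5 of 6 of HCC1954. It turned with time in ZR-75-30, where it was 0.80 and 1.00 at 30 min and 1 h and between -0.82 and -0.33 later. The 2 other bright probes of CCDC126 had correlations of 0.914 and 0.873 with the member, and those of C6orf62 0.819 and 0.692.

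A group of 6 probes stood out in T-47D. It held RPL37A, a protein of the large ribosomal subunit, CSTF3, a factor of mRNA 3' end cleavage, and 4 transcripts without a symbol. The group median in T-47D was -0.62, -0.45 and 0.10 at 30 min, 1 h and 3 h and then -1.12, -1.75 and -2.43 at 6, 12 and 24 h. In the other lines every array median lay between -0.37 and 0.54. RPL37A itself was -0.69, -0.88, -0.24, -1.34, -1.79 and -2.64 in T-47D, and its other bright probe followed it with r = 0.863 at a smaller size, down to -1.63. The other probe of CSTF3 did not follow, with r = -0.12. Of 167 bright probes of cytosolic ribosomal protein genes matched by symbol to a fixed list, 0 were members, since that list lacked RPL37A, and the highest SD was 0.469 for RPL37.

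CTNNB1, which encodes beta-catenin, the adhesion and Wnt pathway protein, went the other way in T-47D. Its probe is spotted 10 times, and its T-47D means were 0.38, -0.06, 0.18, 0.96, 1.87 and 2.63 from 30 min to 24 h, the last with an SD of 0.108 over 8 unmarked spots. In the other lines it lay between -0.67 and 0.76. Its other bright probe had a correlation of 0.579 with it and a highest value of 1.11. The spots of 1 array share a sample, so this SD covers the array and not the cells.

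Some groups rested on a single array. The 12 probes with ST18, WIF1 (a secreted Wnt inhibitor), RGMA (a BMP co-receptor), CFAP74, JAKMIP3, TCF23 and LGI4 had a median of -2.35 in MDA-MB-231 at 24 h and between -0.89 and 0.66 on the other arrays. WIF1 was at -3.02 there, and between -1.31 and 1.14 elsewhere. Without their farthest array, 11 of the 12 had an SD under 0.6. A group of 7 with SKI (a co-repressor of SMADs), SSR3 and ARHGAP35 was looser, with a mean correlation of 0.597. Its medians were all below 0 in HCC1954, from -0.55 to -0.07. They were above 0 on 5 of 6 arrays in T-47D, as in MDA-MB-361. The T-47D mean of SKI went from 0.37 to -0.01 with normexp and loess and to -0.03 with normexp and median scaling. Both settings changed the background correction too.

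FLYWCH1, SEMA3C, PRAC1 and YIF1B were members through the 30 min array of HCC1954 alone. Their ratios there were -4.01, -3.52, -3.53 and -3.50, and their group median on the other arrays lay between -0.30 and 0.38. Without that array their SDs fell to between 0.17 and 0.37. On that array their median vehicle level was 5.57, and in HCC1954 at the other time points it lay between -1.64 and -1.20. The 4 spots lie next to each other in rows 146 to 151 and columns 6 and 7 of an array of 532 rows and 85 columns. SEMA3C is a secreted guidance cue and YIF1B a protein of Golgi transport. The part of spot position in these ratios was not tested.

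Further probes that lie side by side behaved alike. BM468849 and AY239294, in rows 412 and 414 of column 68, were at -3.27 and -4.50 in MDA-MB-361 at 3 h and between -0.81 and 1.07 on all other arrays. AK026192 and AK023040, in rows 215 and 217 of column 40, were at -3.09 and -3.92 in MDA-MB-361 at 6 h. In the large group 36 of 313 probes had another of the group within 3 rows and 1 column, and its spots ran from row 3 to 527 and column 1 to 85. How many of 313 probes placed at random would lie so near was not worked out. The count of 36 therefore says nothing of clustering.

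HSPB8, a small heat shock protein, was a member through MDA-MB-231 at 1 h, where its ratio was -3.39. On all other arrays it lay between -0.52 and 0.75. IFIT1, an interferon-induced protein, had no such array. It was at 1.45, 1.26 and 0.59 in ZR-75-30 at 30 min, 24 h and 6 h, at 1.21 and -1.79 in T-47D at 30 min and 24 h, and at -1.49 in HCC1954 at 6 h. Its vehicle level was highest in MDA-MB-231, 2.98 ± 0.51, and lowest in ZR-75-30, -1.47 ± 0.57 (SD over 6 time points; limma, adjusted p = 9.61e-11).

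Of the remaining probes, HNRPA3 and ENST00000341824 formed a pair with a correlation of 0.920. HNRPA3, an RNA-binding protein under its older symbol, was at -1.27, 1.01, -0.83 and -1.41 in ZR-75-30 at 3, 6, 12 and 24 h, between -0.74 and -0.07 in MDA-MB-361, and turned sign in the other lines. THC2608133 and AL567265 stood alone and had no ratio on many arrays. The first was above 0 wherever it was measured, from 0.11 to 2.32, and the second ran from -1.20 to 1.53, both with their farthest value in T-47D at 3 h.

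Beside ID1 and ID2 (2 of 25 bright probes), the members in lists of known pathways were IER5 (1 of 42 immediate early and AP-1 probes), HSPB8 (1 of 31 heat shock probes), KISS1R and ALDOA (2 of 39 of hypoxia and glycolysis), IFIT1 (1 of 37 interferon-stimulated) and H2AC18 (1 of 43 histone probes, whose near-identical copies the probe may also read). Set against the 1.83% of all bright probes, these are counts too small to compare. KISS1R is a receptor and no enzyme of glycolysis, so the 2 members of its list do not count glycolysis genes alone. There were 0 members among bright probes of amino acid and ER stress genes (36), sterol and fatty acid synthesis (38), estrogen receptor and luminal genes (26), proliferation genes (36), CDK inhibitors and growth arrest genes (26), metallothioneins (17), keratins and adhesion genes (32) and the other 5 lists. Of 210 probes that the study listed as moving together both on these arrays and on arrays of BMP4, which were not analysed here, 196 were bright and 194 were members, all 194 in the large group. These arrays took part in choosing that list, so it is no independent evidence.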

How the data were processed

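RNA of BMP7-treated and vehicle cells of 5 lines at 6 time points was hybridized to 30 two-color arrays on 13 slides, with vehicle in Cy3 and BMP7 in Cy5. Per the file headers, the deposited log10 ratio (Cy5 over Cy3) and the deposited processed intensity of each channel were made by Feature Extraction 9.5.1.1, with its background subtraction and dye normalization. Probe coordinates were those of hg18. The authors' deposited matrix of log2 ratios had a median of 0 on each array, a slope close to 1 on the scanner values and the same direction, and served as an alternative. The paper's own probe list, chosen on these and on BMP4 arrays, was used only to count members.

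Log10 ratios were converted to log2, spots marked as outliers were left out and spots of 1 probe were averaged. Members were grouped by average linkage on Pearson correlation, divided at 0.5. The vehicle level was log2 of the Cy3 intensity minus the 75th percentile of the array, tested between lines with limma 3.58.1 (moderated F, time as a term, Benjamini-Hochberg over all probes). On simulated data with 37950 probes, this test recovered 48 of 100 probes shifted by 1 on the log2 scale and 93 of 100 shifted by 2, with 6 false calls. The shifts were in T-47D alone, and the noise was normal and independent between probes and arrays. Slides, scan periods and probes that move together were not simulated, so these counts do not carry over to the real test. Ratios had no replicates and no test, and the number of arrays limits the precision. R 4.3.3, Python 3.11.15, numpy 2.4.6, pandas 2.3.3 and scipy 1.17.1 were used.

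Named probes with a symbol were the 20 with the largest SD, all in a gene list, the 5 closest to their group in each group of at least 5, and the 3 on either side of the threshold. Further probes were named after their values were seen. Not every probe that the rule names is described, and 1 result is not reported here. The members and lists were chosen with earlier results of these data known, and the grouping by function was made with the members known. Alternatives were normexp (offset 50) with loess or median scaling, the deposited matrix, kept outlier spots, centering, other thresholds, and leaving out lines, times, arrays or the second scan period. Each array left out in turn, and the large group's line means under these settings, were added after the data had been seen.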

Additional observations from a re-analysis of the deposited data

Results flagged for a closer look

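On all 6 arrays of MDA-MB-361 the large group's median was above 0 and on all 6 of HCC1954 below 0, a difference of 0.994 between the line means of the log2 ratio. It was not tested, nor was any difference below, since arrays of a line are time points and not replicates. The differences given are those of named probes for which every array of one line lay above 0 and every array of the other below 0.

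For MDA-MB-361 minus HCC1954 the difference was 1.82 for NEUROG3, 1.52 for CXCR3, 1.39 for GPR20, 1.35 for SOX1, 1.34 for CDH24, 1.31 for CKB, 1.31 for GPR153, 1.29 for ZNF467 and 1.27 for DUX4. It was 1.23 for WNT6, 1.23 for H2AC18, 1.22 for LCE5A, 1.20 for CYP4F2, 1.17 for IER5, 1.14 for SYN1, 1.12 for CMIP, 1.09 for TNRC18, and 1.08 and 0.823 for the 2 probes of GRIN1. It was 1.03 for KRTAP4-1, 1.02 for LINC02907, 1.01 for OTUD7A, 0.982 for GDNF, 0.973 for SOX17, 0.965 for LRP3, 0.954 for SYNPO, 0.881 for KISS1R, 0.863 for LINC00304 and 0.844 for ALDOA. Outside the large group it was 0.760 for ARHGAP35 and 0.499 for HSPB8. With normexp and median scaling the HCC1954 means of TNRC18, LINC00304 and ALDOA were above 0, at 0.03, 0.01 and 0.12. Each difference is that of 1 probe. The other bright probe correlated with the member at -0.44 for CDH24 and CMIP, -0.34 for IER5 and -0.10 for H2AC18. It did so at 0.139 for ALDOA, 0.218 for SYNPO, 0.334 for OTUD7A, 0.590 for TNRC18 and 0.717 for CKB. For ARHGAP35 the values were 0.070 and 0.568.

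For MDA-MB-361 minus T-47D the difference was 1.40 for DUX4, 1.40 for H2AC18, 1.27 for the GRIN1 probe with the larger SD, 1.17 for SOX17, 0.988 for KISS1R and 0.970 for LINC00304. For MDA-MB-361 minus MDA-MB-231 it was 0.840 for ARHGAP35. CCDC126 was higher in HCC1954 than in MDA-MB-361 by 0.997, and C6orf62 higher in T-47D than in MDA-MB-361 by 1.27.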

How the results depend on the processing

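The number of probes in the list depended on the background correction with scaling and on 1 array. It was 372, and 728 with normexp and median scaling, of which 297 were shared. It was 194 without ZR-75-30 (187 shared) and 237 without the 6 h array of ZR-75-30 (235 shared). It was 630 at an SD of 0.5, 53 at 0.8 and 117 for deviations from the line means. Leaving out each of the other 29 arrays in turn gave 310 to 384, the lowest without T-47D at 1 h. The share of events that were upward, 43.7%, was 39.8% with normexp and loess, 63.5% with normexp and median scaling and 40.7% with the deposited matrix. It was 48.7% without HCC1954, 68.0% without T-47D, 14.8% without ZR-75-30 and 29.3% without its 6 h array. It was 57.4% without the 30 min arrays and 54.2%, 39.9%, 28.8% and 38.4% without those of 1, 3, 6 and 12 hours, without the second scan period 32.5%, and for 3-fold events 55.8%. The cause was not tested.

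The 14 alternatives for the vehicle level gave 308 to 353 members called, all within 1.5 times 346. With 372 probes in the list, only a fall could have left that range. The 308 came without the 3 h arrays and the 353 with scan period as a further term. In those settings 17722 and 19250 of the 20310 bright probes were called. Of 280 line means, signs changed in 38 with normexp and median scaling, 27 of them in MDA-MB-231, in 20 without the second scan period, 6 with the deposited matrix, 5 with normexp and loess, 2 without the 6 h array of ZR-75-30 and 0 with each array only shifted to a median of 0. No paired analysis was possible because each line and time had 1 array and the labels carry no replicate numbers. Both dyes of an array are a pair by design, and the vehicle test had time as a term. Members were well above background by the rule, so signal over background limits what is said of dim probes of the same genes.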
